A study of Homo sapiens with 2 samples.

Results

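Cytosines in the exons of human pseudogenes were examined in the RNA bisulfite data of MCF10A, a non-tumour mammary epithelial cell line, and MDA-MB-468, a line derived from a breast tumour. A site was taken when it was nuclear, had a coverage (unconverted plus converted counts) of at least 10, lay on the strand of an exon of a gene annotated as a pseudogene, and lay in no exon of a protein-coding or lncRNA gene of that strand. This gave 20584 sites in 968 pseudogenes in MCF10A, of 1581027 exonic nuclear sites kept and 3146911 sites deposited. In MDA-MB-468 it gave 14942 sites in 633 pseudogenes, of 1268998 kept and 3489803 deposited. Either line covered 25024 of the sites and both lines covered 10502. Both lines came from ATCC, and no treatment is named for either. The labels give DMEM as the medium of both, while the study's methods give RPMI for MDA-MB-468, so medium and cell line cannot be told apart if the latter holds. Each line gave 1 library of poly(A)-selected RNA, so no difference between the lines has a replicate check.

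Pseudogenes are copies of genes that have lost the parent's coding function. Processed pseudogenes arose when a spliced mRNA was copied back into the genome, so they lack the parent's introns and keep its sequence across each exon junction, while unprocessed pseudogenes arose by duplication of the gene and unitary pseudogenes are genes that lost function without a duplicate. Genes that are strongly transcribed in most cells, among them those of ribosomal proteins, translation factors and glycolysis, have left many processed copies. In bisulfite treatment an unmodified cytosine is read as T and a 5-methylcytosine (m5C) is still read as C, so a converted cytosine and a genomic T look alike in a read.

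The cytosines on which the results turn are given in 21-nt windows of GRCh37 (hg19), read 5′ to 3′ on the strand of the pseudogene. Capitals mark cytosines called as m5C in either line. The leading windows hold sites called in both lines.
RNA5-8SP6 (chrY:10037869-10037889, +): cacttgcggCCCgggttcctc
RPS3P3 (chr3:183868025-183868045, +): acagggtgtgCtgggcatcaa
RPL39P3 (chr6:74082967-74082987, -): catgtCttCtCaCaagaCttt
RPLP0P2 (chr11:61404761-61404781, +): cttgacatcaCagaggaaact
GAPDHP61 (chr15:64821530-64821550, -): aaggctggggCtcacttgcag
The next windows come from pseudogenes that held long runs of called sites, and from the pseudogene whose sites differed most between the lines.
CCT6P2 (chr5:14639608-14639628, -): aaagaaacagCttCttCaCtC
RPS27P3 (chr12:3321042-3321062, -): CttCatCCCtCtCCagaagag
FTLP2 (chrX:30648791-30648811, +): tctgtgaCttCctggagagtc
CD24P4 (chrY:21154473-21154493, -): agtaaCtCCtCCCagagtaCt
HMGN2P4 (chr5:75538117-75538137, -): CCgtCgCtgCCgCCaccatgc

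Pseudogene cytosines were unconverted slightly less often than the other exonic cytosines of the same library. In MCF10A 1.63% of 1620106 counts at these sites were unconverted (95% Wilson interval 1.61 to 1.65%), against 1.94% over all kept nuclear sites and 1.94% in protein-coding exons. In MDA-MB-468 the share was 1.61% of 771047 counts (1.59 to 1.64%), against 1.77% and 1.72%. Over the sites covered in both lines the shares were 1.57% for MCF10A and 1.61% for MDA-MB-468. The intervals cover counting error only, and they are too narrow because a read spans several cytosines and so is counted at each of them. For the sites whose surrounding sequence, with C read as T, is also found in another transcript, reads of the pseudogene and of its parent cannot be told apart, and the share of the counts that came from parent transcripts was not tested. Each share at a pseudogene site is therefore that of the reads placed there. The median coverage was 23 for MCF10A and 19 for MDA-MB-468.

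Processed pseudogenes supplied most of the sites, 17664 of 20584 for MCF10A and 10651 of 14942 for MDA-MB-468. Their nonconversion was 1.62% in each line. Transcribed unitary pseudogenes gave 869 sites at 1.69% for MCF10A and 2584 sites at 1.32% for MDA-MB-468. Among pseudogenes with at least 1000 counts, nonconversion ran from 0.399 to 6.01% over 240 pseudogenes in MCF10A, with a median of 1.57%. It ran from 0.160 to 13.9% over 145 pseudogenes in MDA-MB-468, with a median of 1.31%. The lowest of the latter was MT2P1, a copy of the metallothionein gene MT2A, and the highest was CD24P4. MT2P1 had 1154 cpm (counts scaled to the kept nuclear total) for MCF10A and 29.6 for MDA-MB-468. KRT19P1, a copy of a simple-epithelium keratin gene, had no site at this coverage for MCF10A and 503.5 cpm for MDA-MB-468, where KRT19 itself had 12497 against 8.25 in MCF10A. These are sums over covered cytosines and not transcript levels. The epithelial keratins KRT8 and KRT18 were covered in both libraries, while EPCAM and CDH1, which mark most epithelia, had no kept site for MCF10A and 138.6 and 50.1 cpm for MDA-MB-468. Among the basal markers, KRT5 had 254.2 and 117.9 cpm (MCF10A, then MDA-MB-468), KRT17 154.7 and 2013 cpm, and KRT6A 68.6 cpm and no kept site. The basal markers KRT14 and TP63 and the leukocyte markers PTPRC and CD3E had no kept site in either, and the fibroblast marker COL1A1 had 99.6 cpm in MDA-MB-468 and none in MCF10A. Their part in the results was not tested.

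Many of the pseudogenes with the most counts were copies of ribosomal protein genes. The 10 with the most counts held 24.7% of the counts of the sites in MCF10A and 25.7% of those in MDA-MB-468. Over both lines the leading one was a copy of EEF1G, a subunit of the translation elongation factor complex (ENSG00000283041), with 758.4 cpm and 1.45% unconverted in MCF10A and 789.0 cpm and 1.02% in MDA-MB-468. No site of it was called in either line. RPL13P12, a copy of a ribosomal protein gene, had 910.6 cpm and 1.35% in MCF10A, and 339.3 cpm and 1.65% in MDA-MB-468. FAUP1, a copy of the gene FAU, which encodes a ubiquitin-like protein fused to a ribosomal protein, had 393.1 and 536.2 cpm, with 1.77% and 1.10% unconverted. FTLP3, a second copy of the ferritin light chain gene, had 1.11% of 31091 counts unconverted in MCF10A. It had 1.51% of 13119 in MDA-MB-468, where 1 of its sites was called. RPLP0P6 had 1.52% with 1 called site in MCF10A and 4.59% with 2 in MDA-MB-468. Of the pseudogenes with at least 1000 counts, 176 of 240 (MCF10A) and 105 of 145 (MDA-MB-468) lay below the nonconversion of all kept nuclear sites.

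Most pseudogenes could be placed beside a best-matching transcript, called the parent here. The match rests on sequence alone and need not be the gene of origin. For unitary pseudogenes, which have no duplicate, it is only a similar sequence. Of 1052 pseudogenes, 1027 matched a protein-coding or mitochondrial transcript over at least 100 nt at an identity of at least 80%, with a median identity of 94.5%, and 1021 of these had a parent with several exons. EEF1A1, GAPDH and RPS2 each had 10 copies among them. RNA5-8SP6 and CD24P4, both on the Y chromosome, had no match among these transcripts. Other sequences, nuclear ribosomal RNA among them, were not searched, so this does not show that their sequence is unique. Whether the reads placed there came from the Y chromosome was not tested. The covered cytosines lay close to the positions where the parent's exons are joined. In MCF10A 24.8% of the reference cytosines matched to a parent cytosine 1 to 10 nt from a junction were covered, and this fell to 19.3% at 11 to 25 nt, 7.43% at 26 to 50 nt and 0.695% at 51 to 100 nt, and was 1.30% beyond 100 nt. In MDA-MB-468 the shares were 22.4%, 17.6%, 7.10%, 1.06% and 1.01%. The matched cytosines of the parents ran the other way, from 17.3% near the junction to 50.7% at 51 to 100 nt for MCF10A and from 15.6% to 43.2% for MDA-MB-468. Beyond 100 nt the parents' shares were lower again, at 42.3% and 36.4%. Within 50 nt of a junction lay 96.1% (MCF10A) and 95.4% (MDA-MB-468) of the matched sites, against 60.5% and 61.1% of all matched reference cytosines of the same pseudogenes. These are descriptions over cytosines that share reads and pseudogenes, with no test.

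**Figure D1:**
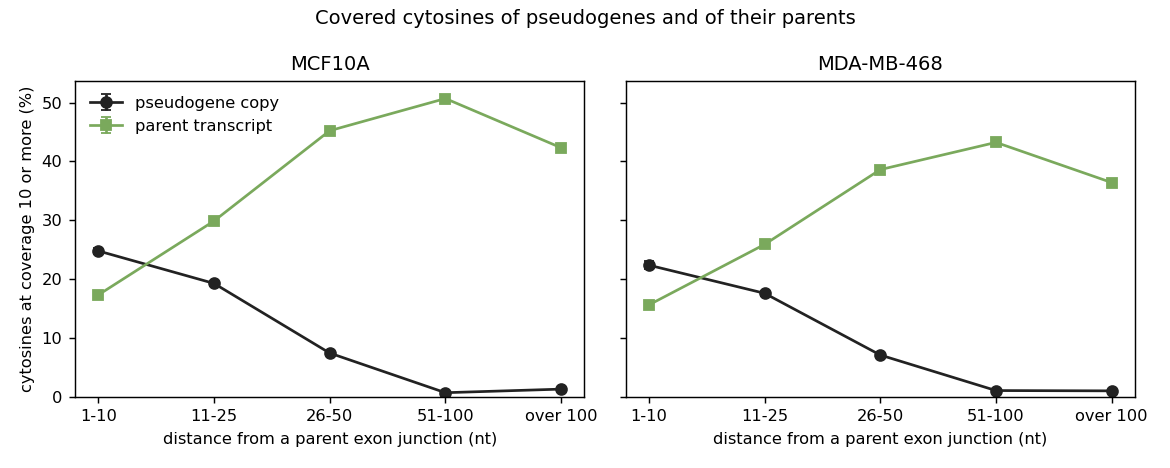
Share of cytosines with a coverage of at least 10 (y axis, %) by distance from the nearest exon junction of the parent (x axis, nt), for the pseudogene copy (circles) and the matched cytosine of the parent (squares), with 95% Wilson intervals. The copies fell from 24.8 to 0.695% for MCF10A and from 22.4 to 1.06% for MDA-MB-468 between 1 to 10 nt and 51 to 100 nt, while the parents rose over the same distances. Beyond 100 nt the copies lie at 1.30 and 1.01% and the parents at 42.3 and 36.4%.

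The matched base of the parent divided the sites sharply. Where the parent also has C, 1.65% of counts were unconverted for MCF10A (18626 sites) and 1.63% for MDA-MB-468 (11602 sites). Where the parent has T, the share was 0.105% of 34138 counts at 522 sites for MCF10A (0.0762 to 0.146%) and 0.137% of 14618 counts at 267 sites for MDA-MB-468 (0.0886 to 0.211%). None of those sites was called, and 95.6% and 93.6% of them had no unconverted count. The cytosines matched to C in the same pseudogenes had 1.72% and 1.56%, so the T sites lay far below their own neighbours. No matched position was found for 1406 MCF10A sites and 3045 MDA-MB-468 sites.

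Examples of T sites with the most counts are shown with the window of the parent transcript beneath. Capitals mark the bases that differ, and C11T means that the pseudogene has C and the parent T at position 11, counted from 1 at the 5′ end of the window.
HMGA1P3 (chr12:110867871-110867891, -): acaagggtgcCgccaagaccc
HMGA1: acaagggtgcTgccaagaccc
RPL4P4 (chr3:185136371-185136391, -): gtcatcagacCagtgctgagt
RPL4: gtcatcagacTagtgctgagt
The cytosine of HMGA1P3 had 1 unconverted count of 1341 for MCF10A and 0 of 511 for MDA-MB-468, which allows a share of up to 0.587%. That of RPL4P4 had 0 of 1123 and 0 of 143, which allows up to 0.267% and 2.10%. In both pairs the windows are identical once C is read as T.

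**Figure D2:**
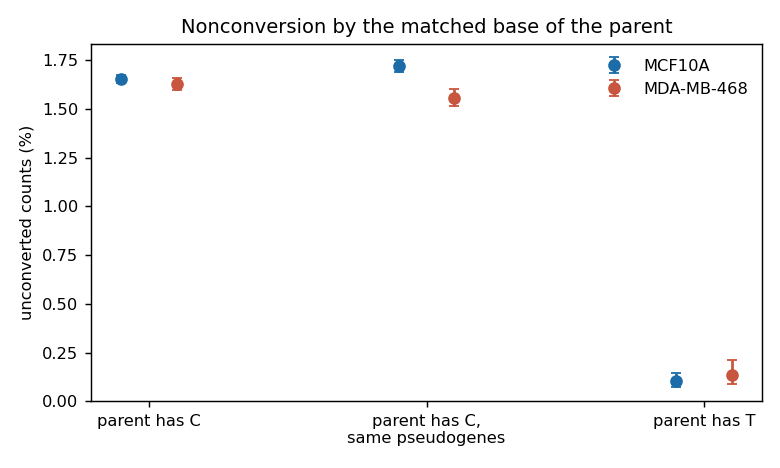
Unconverted share of counts (y axis, %) at pseudogene cytosines whose matched parent base is C, at those matched to C in the pseudogenes that also hold a T site, and at those matched to T, by cell line with 95% Wilson intervals. The T sites sit at 0.105% for MCF10A and 0.137% for MDA-MB-468, and the other sites between 1.56 and 1.72%.

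Few covered sites stood where the parent has A or G. Of the cytosines with a covered site within 15 nt on each side, 99.4% of those matched to C and 99.7% of those matched to T reached a coverage of 10 in MCF10A, and 8 of 46 (17.4%) of those matched to A or G did. In MDA-MB-468 the shares were 99.5%, 99.5% and 42.4% (14 of 33). Of the 16 covered A or G sites in MCF10A, 3 were called. RPL21P34 had 25 unconverted counts of 30, RPS12P4 had 12 of 23, and a copy of RPLP2 (ENSG00000240652) had 9 of 11. None of the 23 such sites in MDA-MB-468 was called. These 3 sites were named after their values were seen.

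A parent cytosine covered at 10 or more stood beside 5833 of the 18626 sites matched to C for MCF10A and 3451 of 11602 for MDA-MB-468. Over these pairs the pseudogene had 1.57% and the parent 1.53% for MCF10A, and 1.61% and 1.44% for MDA-MB-468. In MCF10A 15 of the pseudogene cytosines and 21 of the parent cytosines were called, 7 of them at the same pair. In MDA-MB-468 the counts were 31, 20 and 7. By region of the parent, copies of coding sequence had 1.64% in MCF10A. They had 1.60% in MDA-MB-468. Copies of 3′UTR sequence had 1.43% and 1.49%, with none called of 146 and 98 sites. Copies of 5′UTR sequence had 8.57% in MDA-MB-468, with 11 of 64 sites (17.2%) called. Of all kept sites there 0.84% were called, and HMGN2P4 alone held 11 called sites in that line. The 5′UTR values of MCF10A are not reported here.

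A site was called as m5C when its unconverted counts exceeded the library's background in a Fisher's exact test taken in the upper direction, at a Benjamini-Hochberg adjusted p under 0.05 over all kept sites of the line. Of the pseudogene sites 108 of 20584 (0.525%) in 44 pseudogenes passed in MCF10A. This compares with 0.96% of all kept sites, which include mitochondrial sites, and 0.851% of the kept nuclear sites. In MDA-MB-468 115 of 14942 (0.770%) in 26 pseudogenes passed, against 0.84% of all kept sites and 0.741% of the kept nuclear sites. The share was thus below both for MCF10A, and in MDA-MB-468 it lay between them. That of MDA-MB-468 rested on few pseudogenes: without CCT6P2, RPS27P3, CD24P4, FTLP2 and RPL39P3, 43 of 14807 sites (0.290%) passed there and 65 of 20503 (0.317%) in MCF10A, a comparison chosen after seeing the data. Each test compares a site with its own library, not the cell lines. The fewest unconverted counts that passed were 4 where coverage was 10 and 6 where it was 50. The median unconverted share of the called sites was 26.7% for MCF10A and 27.0% for MDA-MB-468.

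The called sites were gathered in short runs. In MCF10A 68 of the 108 (63.0%) had another called site within 10 nt, and in MDA-MB-468 98 of the 115 (85.2%) did. The share over all called kept sites was not computed, and the study reports clustering of m5C sites on mRNA too. These shares are therefore not read as particular to pseudogenes. Each line had 9 runs of at least 3 called sites, which held 62 and 88 of them. In 5 of the runs for MCF10A and 6 for MDA-MB-468 the unconverted count differed by at most 2 from the lowest to the highest site of the run. CCT6P2, a copy of a chaperonin subunit gene, and RPS27P3, a copy of a ribosomal protein gene, together held 36 of the 108 called sites in MCF10A.

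The same run of 15 sites of CCT6P2 was called in both lines. It spanned 39 nt, with 4 to 6 unconverted counts of 10 to 15 for MCF10A and 4 to 5 of 11 to 15 for MDA-MB-468. RPS27P3 had 15 sites with 6 to 12 unconverted counts of 12 to 56 for MCF10A and 10 sites with 6 to 7 of 14 to 16 for MDA-MB-468. In RPL39P3, identical over its aligned length to the transcript of the ribosomal protein gene RPL39, 6 sites had 15 to 17 of 102 to 108 for MCF10A and 8 to 10 of 33 to 37 for MDA-MB-468. In CCT6P2 and RPL39P3 the unconverted counts of neighbouring called sites thus differed by at most 2. FTLP2, a copy of the ferritin light chain gene, had 17 called sites with 4 to 7 unconverted counts of 10 to 41 in MDA-MB-468. None was called in MCF10A, where the same sites had 4 to 7 unconverted counts of 39 to 103. No site of FTLP2 passed the test between the lines given below. CD24P4 had a run of 16 called sites with 5 to 6 unconverted counts of 11 to 45 in MDA-MB-468, and no site at this coverage in MCF10A.

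**Figure D3:**
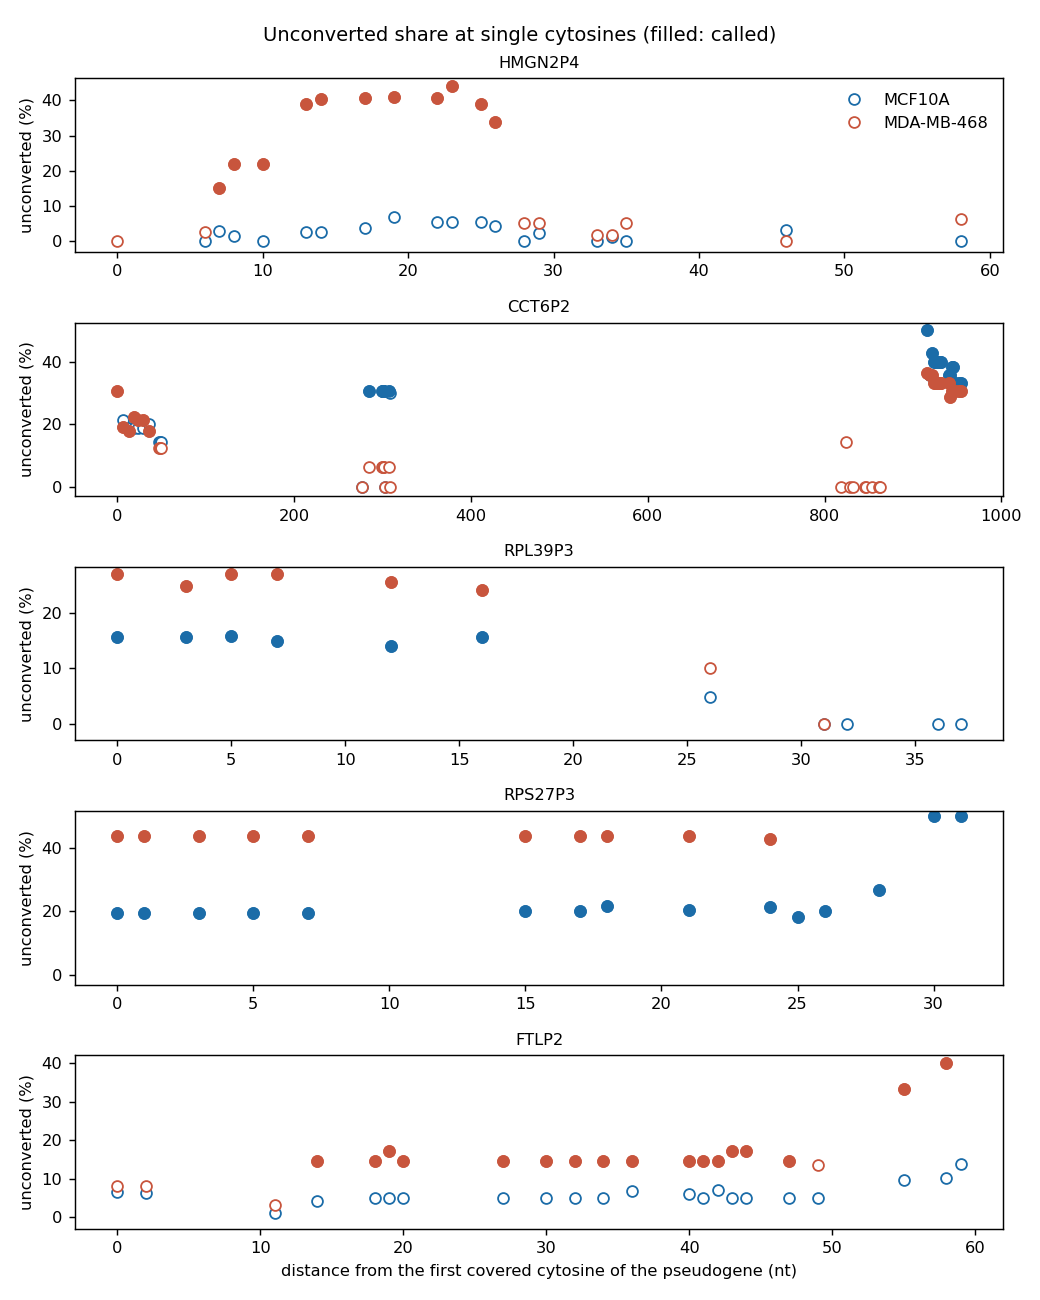
Unconverted share (y axis, %) at each cytosine covered at 10 or more, by distance along the pseudogene from the first covered cytosine (x axis, nt), in 5 pseudogenes chosen after their values were seen. Filled points were called as m5C. The called sites of RPL39P3 lie between 14.2 and 15.9% for MCF10A and between 24.2 and 27.0% for MDA-MB-468. Those of HMGN2P4 reach 44.1% in MDA-MB-468, while its cytosines in MCF10A, none of them called, reach 6.82%.

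Of the called sites 37 were called in both lines, 34.3% of those of MCF10A and 32.2% of those of MDA-MB-468. Only 74 of the 108 and 93 of the 115 reached a coverage of 10 in the other line. The overlap over all called kept sites was not computed. With 20 or more counts in each line, 7 were called in both when at most 2 were taken per pseudogene. The centre of the RNA5-8SP6 window, in a pseudogene of 5.8S ribosomal RNA, had 37 unconverted counts of 82 for MCF10A (45.1%, 34.8 to 55.9%) and 64 of 154 for MDA-MB-468 (41.6%, 34.1 to 49.5%). The cytosine of RPS3P3, a copy of the ribosomal protein gene RPS3, had 27 of 95 (28.4%, 20.3 to 38.2%) and 6 of 22 (27.3%, 13.2 to 48.2%). It stood alone in its window, followed by TGGG. RPLP0P2 had 16 of 135 and 7 of 55, and GAPDHP61, a copy of the glycolytic enzyme gene GAPDH, had 27 of 466 (5.79%) and 11 of 123 (8.94%). For each of these sites the intervals of the lines overlapped.

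The test lets lower unconverted shares pass as coverage rises, and the called sites of highest coverage had low shares. The 5 with the highest coverage were all called in MCF10A, and 3 of their windows are given, with the called cytosine in capitals.
RPL3P4 (chr14:99439354-99439374, -): ctggtgcagaCgaagcggcgg
ENSG00000237214, a copy of RPS9 (chr22:41460450-41460470, +): agcgccatttCagggtccgca
RPL8P4 (chr3:174095653-174095673, +): tcggaggtggCaaccaccagc
The cytosine of RPL3P4 had 34 unconverted counts of 718 in MCF10A (4.74%, 3.41 to 6.54%) and 7 of 319 in MDA-MB-468 (2.19%, 1.07 to 4.46%). The RPS9 copy had 24 of 544 (4.41%) and 5 of 165 (3.03%), and RPL8P4 had 29 of 536 (5.41%) and 18 of 461 (3.90%). None of these 3 was called in MDA-MB-468, and none passed the test between the lines, each with an adjusted p of 1.0 in Fisher's exact test.

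The unconverted share was also taken by the base on each side of the cytosine, pooled over pseudogenes. Over the 16 triplets it ran from 1.20% (TCC) to 2.05% (GCA) in MCF10A and from 1.18% (TCC) to 1.92% (ACA) in MDA-MB-468. The median predicted pairing probability of the called sites was 0.584 (MCF10A) and 0.451 (MDA-MB-468), beside 0.534 and 0.569 over all sites.

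The letters after a cytosine were also counted, read on the RNA strand only. CNGGG stood at 475 MCF10A sites (2.31%) and 423 MDA-MB-468 sites (2.83%), against 3.18% and 3.50% of all kept nuclear sites. Of the CNGGG sites 9 (1.89%) and 6 (1.42%) were called, against 2.20% and 1.84% of those among all kept nuclear sites. CTCCA stood at 169 and 124 sites, of which 3 (1.78%) and 0 were called, against 0.681% and 0.491% of the CTCCA sites among all kept nuclear sites. A match describes the letters and no enzyme.

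Groups of pseudogenes were formed from their symbols, so copies known by an identifier alone fell in the remaining group. The 122 ribosomal protein pseudogenes of MCF10A had 1.53% of counts unconverted with 34 of 2317 sites (1.47%) called. Of all kept sites 0.96% were called there, and of the kept nuclear sites 0.851%. The 71 of MDA-MB-468 had 1.51% with 28 of 1509 (1.86%) called, against 0.84% and 0.741%. RPS27P3 held 15 and 10 of these called sites and RPL39P3 held 6 and 6. Translation factors had 1.94% and 1.47%, glycolysis 1.76% and 1.79%, and RNA binding 2.32% and 2.71%. The highest shares were those of mitochondrial copies, 8.54% over 36 sites of 3 pseudogenes for MCF10A and 4.98% over 21 sites of 1 pseudogene for MDA-MB-468. Of these sites 4 and 0 were called. Ribosomal RNA pseudogenes had 4.01% over 21 sites of 1 pseudogene and 3.06% over 39 sites of 2, with 3 and 4 sites called. Chaperones had 3.06% and 3.16%, with 21 of 23 and 22 of 24 called sites in CCT6P2. Chromatin and nucleolar genes had 1.68% and 3.83%, and their 11 called sites of MDA-MB-468 were those of HMGN2P4. Iron and redox genes had 1.40% and 2.33%, with 17 of the 18 called sites of MDA-MB-468 in FTLP2. In each of these 3 groups the called sites of MDA-MB-468 thus lay mostly or wholly in 1 pseudogene.

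**Figure D4:**
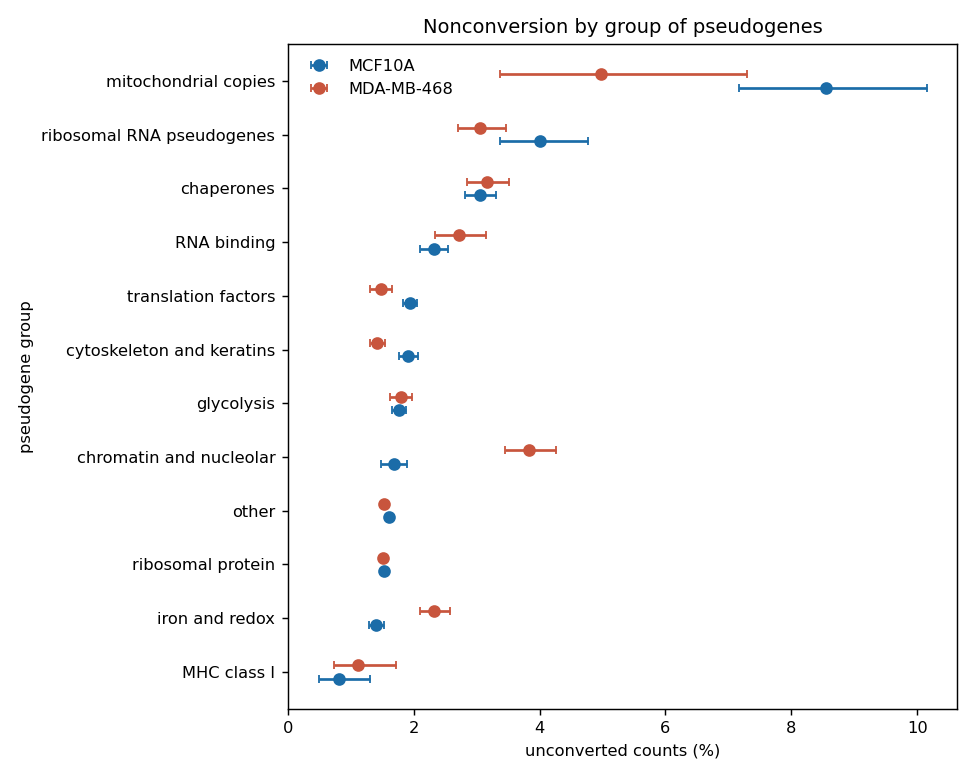
Unconverted share of counts (x axis, %) for each group of pseudogenes (y axis) in MCF10A and MDA-MB-468, with 95% Wilson intervals. Mitochondrial copies lie highest, at 8.54 and 4.98%, and ribosomal protein pseudogenes at 1.53 and 1.51%.

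Each site covered in both lines was compared by Fisher's exact test, two-sided, which sets 1 library against the other and says nothing of the conditions. Of 10502 sites 11 (0.105%) passed an adjusted p under 0.05 over all sites covered in both lines, against 0.0893% of all such sites. The latter include mitochondrial sites. All 11 were higher in MDA-MB-468, the direction of 0.0202% of all sites tested, and none was higher in MCF10A, the direction of 0.0691%. An unadjusted p under 0.05 was reached by 206. The 11 lay in 3 pseudogenes, with 8 adjoining sites in HMGN2P4, 2 in RPLP0P6 and 1 in RPL3P4.

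HMGN2P4 is a copy of HMGN2, which encodes a nucleosome-binding protein. The centre of its window had 5 unconverted counts of 91 for MCF10A (5.49%, 2.37 to 12.2%) and 26 of 59 for MDA-MB-468 (44.1%, 32.2 to 56.7%), with an adjusted p of 3.83e-05 in Fisher's exact test. The matched cytosine of HMGN2 had 0 of 57 for MCF10A and 5 of 21 for MDA-MB-468, so parent and copy were both higher in MDA-MB-468. All 11 sites that differed between the lines had a 51-nt window that, with C read as T, is also found in a protein-coding or mitochondrial transcript. The sites of RPLP0P6 had 4 of 631 and 1 of 534 in MCF10A against 8 of 73 and 6 of 58 in MDA-MB-468, and that of RPL3P4 had 4 of 329 against 7 of 42.

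Such a repeated window was held by 50.5% of the MCF10A sites and 42.9% of the MDA-MB-468 sites. Other transcripts, such as nuclear ribosomal RNA, were not scanned, so a site without it need not be unique. Sites with it had 1.59% unconverted in each line, and sites without it 1.71% and 1.65%. Of the called sites 65 of 108 and 72 of 115 had it. Sites inside a protein-coding or lncRNA gene of the same strand made up 20.3% and 16.8%, with 1.58% and 1.51% unconverted.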

How the data were processed

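RNA bisulfite sequencing was analysed for MCF10A and MDA-MB-468, with 1 library each. Poly(A)-selected RNA was treated with bisulfite for 8 hours at 60 degrees, per the labels. The authors trimmed the reads with Trim Galore, aligned them to hg19, and deposited raw unconverted and converted counts per cytosine; the methods name MeRanTK for RNA and Bismark for DNA, while the submitters' processing notes list Bismark for these samples, and versions are not given in the sources used here. The files hold sites from a coverage of 5, with 76098976 counts in MCF10A and 90960018 in MDA-MB-468.

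Sites were annotated with GENCODE release 44 mapped to GRCh37. The background was the pooled nonconversion of all kept sites of the line. Parents were found with BLAST 2.17.0. Pairing was predicted with RNAplfold of ViennaRNA 2.7.2 at 70 degrees, with a window of 300 nt and a span of 150 nt. Tests used scipy 1.17.1 with Benjamini-Hochberg adjustment, and intervals are Wilson intervals at 95%; the limit for a count of 0 is 3 counts. On simulated counts, 71.0% (MCF10A) and 69.0% (MDA-MB-468) of 100 sites set to 20% were recovered at a coverage of at least 20. Of 200 sites set to a ratio of 0.05 in MCF10A and 0.4 in MDA-MB-468, 59.5% were recovered at that coverage. The simulated counts were drawn independently at each site, whereas neighbouring sites of these data share reads. Named pseudogenes were the 20 with the most counts, the 10 with the most called sites in each line and the leading member of each group; named sites were up to 10 called in both lines, 5 by difference and 5 by coverage. The sites, lists and groups were chosen with earlier results of these data known. Single values of 1 pseudogene, and results that rest mainly on it, are not reported here.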

Additional observations from a re-analysis of the deposited data

Results flagged for a closer look

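Sites at a coverage of 5 to 9 entered no comparison above. Over all such pseudogene sites 3.03% of counts were unconverted for MCF10A and 2.17% for MDA-MB-468, and 31 sites of MCF10A and 0 of MDA-MB-468 were wholly unconverted. The pseudogenes below held at least 5 such sites with most counts unconverted, above the limit that a count of 0 allows, and they are given as values. CD24P4 had 129 unconverted counts of 145 (89.0%) over 25 sites for MCF10A and 17 of 25 (68.0%) over 5 sites for MDA-MB-468. KRT19P1 had 63 of 74 (85.1%) over 11 sites, MTND4P35, a copy of mitochondrial sequence, 65 of 70 (92.9%) over 14 sites, and RPS18P9 55 of 82 (67.1%) over 13 sites, all in MCF10A. At this depth the counts of neighbouring sites can come from the same few reads, and this was not tested.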

How the results depend on the processing

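No paired analysis was possible because each line has 1 library. Leaving out sites with a repeated 51-nt window gave 1.71% and 1.65% unconverted (MCF10A, then MDA-MB-468). Called then were 43 of 10188 sites (0.422%) and 43 of 8538 (0.504%), and 0 of 4844 differed between the lines. Without such limits the called shares were 0.525% and 0.770%. Leaving out sites with a pairing probability over 0.5 gave 1.69% in MCF10A. It left 48 called of 9399 sites (0.511%) and 66 of 6235 (1.06%), and 6 of 4578 differed. A coverage minimum of 20 gave 1.56% and 1.498%, and 76 called of 7239 sites (1.05%) in MDA-MB-468. Leaving out sites inside a gene of the strand gave 1.64% in MDA-MB-468. A methylation ratio of at least 0.2 left 68 and 75 called sites. In alternatives chosen after seeing the data, sites over 50 nt from a parent junction had 1.83% and 1.55%. Of these 8 of 742 (1.08%) and 1 of 556 (0.180%) were called, and 0 of 245 differed. Leaving out CCT6P2, RPS27P3, CD24P4, FTLP2 and RPL39P3, also chosen after seeing the data, gave 1.61% and 1.55%, with 65 and 43 called sites. Beside the parent, a coverage minimum of 20 gave 1.56% for parents in MCF10A and 1.54% for copies in MDA-MB-468. By group it gave in MCF10A 1.98% for RNA binding, 2.20% for chaperones, 6.20% for mitochondrial copies and 1.52% for the remaining group, and in MDA-MB-468 1.53% for RNA binding (2.71% at a minimum of 10), 2.46% for chaperones, 1.62% for glycolysis, 2.09% for iron and redox, 1.40% for the remaining group and 1.43% for ribosomal proteins. The cause of these shifts was not tested. The called share of all kept sites was not computed under any of these alternatives. The called shares of the alternatives are therefore not read as higher or lower than those of other exons. The other 53 alternative values stayed within the counting interval, or within 1.5 times the count. Coverage limits the calls, and with 1 library a line the spread between cultures is unknown.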
